A study of Mus musculus with 6 samples.

Results

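The comparison described here sets FL-Y, a mouse cell line labelled as follicular dendritic cell (FDC)-like and transformed with SV40, against bone marrow derived dendritic cells (BMDC). It takes in 4 of the 6 arrays of the study, chosen by their labels alone: 1 array of FL-Y as it was, 1 of FL-Y activated through an antibody to the lymphotoxin beta receptor (the label reads anti-LTbeta receptor), and 2 of BMDC. The 2 FL-Y arrays were pooled as 1 group, so the spread within that group also holds whatever the activation did. The remaining 2 arrays, of FDC cultured in vitro, are used below only to set the line beside primary cells of the type it is named after. For all 6 arrays total RNA was the starting material and biotin the label, and each measured 45101 probe sets. The labels give no strain, sex, age or culture time, do not say whether FL-Y is 1 clone, and do not say whether the 2 arrays of a cell type came from separate cultures or animals, so a p-value here measures only the spread between these arrays. Every FL-Y array carries the SV40 transformation and neither other cell type does, so the transformation and the cell lineage cannot be told apart by this comparison.

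The 2 cell types share part of a name and little of their known origin. Follicular dendritic cells belong to the stroma of B cell follicles: they hold immune complexes on their surface through complement and Fc receptors, and lymphotoxin from B cells keeps them in being through the lymphotoxin beta receptor. Dendritic cells grown from bone marrow belong to the blood-forming lineage, take up and digest protein, and show its peptides to T cells on major histocompatibility complex (MHC) class II. SV40 is a virus whose large T protein binds the retinoblastoma family and p53, which is why it is used to keep cultured cells dividing.

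Signals are the deposited array intensities, for which every array has the same trimmed mean of about 500. Differences are on the scale of log2(signal + 14.2), which understates the change of dim genes, and are given as FL-Y minus BMDC with their standard error (SE). A gene was called higher or lower where its Benjamini-Hochberg adjusted p from limma was under 0.05, and all adjusted p-values below are limma's with 2 arrays a group. A gene is read from its brightest probe set. The unactivated FL-Y array is always given before the activated one. The array medians were lower for FL-Y, at 61.1 and 47.9, than for BMDC, at 76.4 and 84.4. On the log2 scale the 2 FL-Y arrays correlated at 0.963 over probe sets and the 2 BMDC arrays at 0.920, while an FL-Y array and a BMDC array correlated between 0.793 and 0.802. The number of arrays limits the precision of every value, and for a single gene the smallest p that exact permutation could reach with 2 arrays on each side is 0.333.

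The summed signals of stromal and of myeloid markers were where the labels put them. The brightest members weigh most in such a sum, and members such as the stromal Pdpn and the dendritic Flt3 were not called. The summed signal of 8 stromal markers was 146916 and 103710 on the FL-Y arrays against 6480 and 3708 on the BMDC arrays. On the cultured FDC arrays it was 187964 and 110839. The sum of 8 dendritic and myeloid markers was 418 and 355 in FL-Y against 174749 and 145416 in BMDC. Of 4 leukocyte markers the line showed 75.2 and 128 in sum, against 80092 and 68301 in BMDC. For the FDC-like part of the label, 8 FDC markers summed to 12828 and 13881 in FL-Y, 19146 and 16267 in cultured FDC and 63342 and 54627 in BMDC. The sum was highest in BMDC, where Fcgr2b and Mfge8 made up most of it, so it does not stand for the set as a whole. Cr2, the complement receptor that marks mature FDC, read 41.9 and 21.6 on the FL-Y arrays, 59.1 and 71.1 on the BMDC arrays and 119.5 and 4.1 on the FDC arrays, with an adjusted p of 0.145 against BMDC. Cxcl13, the chemokine by which FDC draw B cells, read 47.9 and 2.3 in FL-Y and 1288 and 64.5 in FDC and was too dim over the FL-Y and BMDC arrays to be tested. Madcam1, an adhesion molecule of FDC, read 71.2 and 35.5 in FL-Y, 80.1 and 76.3 in BMDC and 108 and 69.6 in FDC, with an adjusted p of 0.353 against BMDC. These markers do not settle the FDC-like part of the label. Of the other members, Vcam1 was higher in FL-Y than in BMDC, Fcgr2b and Mfge8 were lower, and Icam1 and Ltbr were not called.

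Of 12532 genes tested, 1711 were higher in FL-Y and 2080 lower, which is 13.7% and 16.6% of the genes, 30.3% in either direction. These shares set the background for every count against BMDC below. Over the 27022 probe sets tested, 3053 were higher and 3864 lower. That split follows the scaling: with every array rescaled to one median it became 5841 higher and 2639 lower, and the median difference of all genes moved from -0.06 to 0.49. After quantile normalization it was 3323 higher and 3049 lower, with a median over all genes of 0.06. The differences were large. The smallest called probe set differed by 1.05 on the log2 scale, 160 genes were higher and 331 lower by 5 or more, and for 63.7% of all 18193 named genes the 2 pairs of arrays did not overlap, so that a lack of overlap is common here. Of the 3791 genes called, 1419 were still called without the unactivated FL-Y array and 1397 without the activated one, against 3219 and 3283 without the first or the second BMDC array, and none of them changed direction in those fits.

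**Figure D1:**
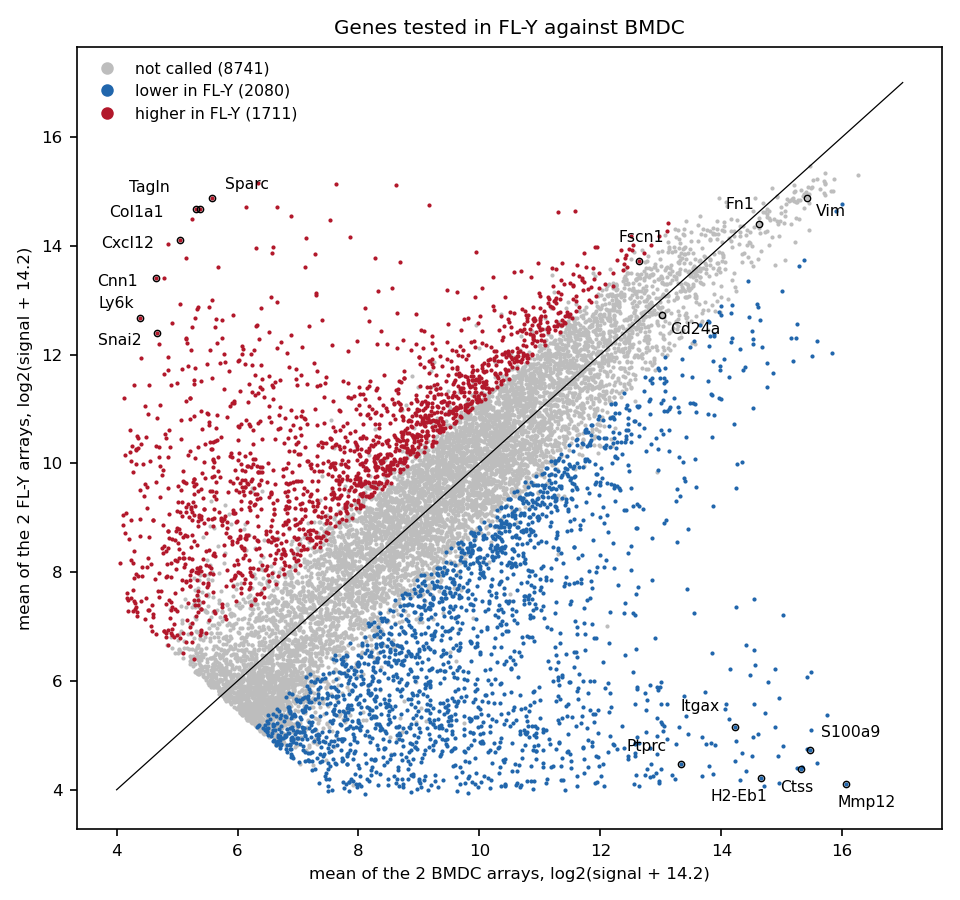
Mean log2(signal + 14.2) of the 2 BMDC arrays (horizontal axis) and of the 2 FL-Y arrays (vertical axis) for the 12532 genes tested, each point 1 gene; red marks the 1711 genes called higher in FL-Y, blue the 2080 called lower, grey the 8741 not called, and the line marks equal means. Labelled genes such as Col1a1, Tagln and Ly6k stand at the upper left, Mmp12, Ctss and Ptprc at the lower right, and Vim and Fn1 near the line at its upper end.

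The largest rises in FL-Y were mostly genes of connective tissue and smooth muscle-like cells. Col1a1, the alpha 1 chain of type I collagen, read 31443 and 21747 on the FL-Y arrays and 21.5 and 30.5 on the BMDC arrays. Both FL-Y signals lay far above both BMDC signals, a difference of 9.36 ± 0.34 (adjusted p = 0.000539). Sparc, a collagen-binding matrix protein, differed by 9.30 ± 0.69, Tagln, an actin-binding protein of smooth muscle, by 9.30 ± 0.32 and Ccn2, a matrix protein induced by stretch and by TGF-beta, by 9.24 ± 0.65. Pcolce, which speeds the trimming of procollagen, differed by 9.19 ± 0.42, the chemokine Cxcl12 by 9.07 ± 0.72 and Col3a1 by 8.82 ± 0.40. Cnn1, a calponin of smooth muscle, Mfap5, a microfibril protein, and Tm4sf1, a membrane protein, closed the first 10 at 8.76 ± 0.49, 8.63 ± 0.41 and 8.62 ± 0.57.

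The 10 largest falls were genes of macrophages, granulocytes and antigen-presenting cells. Mmp12, the elastase of macrophages, read 5 and 1.4 in FL-Y and 76078 and 61117 in BMDC, a difference of -11.94 ± 0.31 (adjusted p = 0.000539). Arg1, the arginase of alternatively activated macrophages, read 14.2 and 3.8 against 65953 and 36587 and differed by -11.09 ± 0.44. Ctss, the protease that trims the class II invariant chain, read 7.1 and 6.2 against 50862 and 32465 and differed by -10.93 ± 0.35. In each of these the FL-Y signals lay at or below about the added offset of 14.2, where values have no dependable order, and both BMDC signals lay far above them. Ccl6 differed by -10.91 ± 0.37, the leukocyte surface peptide Cd52 by -10.84 ± 0.33, the calcium-binding pair S100a8 and S100a9 by -10.82 ± 0.46 and -10.73 ± 0.55, Chil3 by -10.67 ± 0.51, Retnla by -10.64 ± 0.44 and the class II beta chain H2-Eb1 by -10.43 ± 0.29. A gene that is dim in one of the cell types passed the filter on low values only through the other, where it is bright, so such a gene could hardly be tested without being called. The stromal and myeloid lists below hold many such genes, so the distance of their counts from the share over all genes is a description. In bulk RNA, fewer cells of a kind and less RNA per cell cannot be told apart.

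Collagen chain genes were higher in FL-Y almost throughout. Of 21 on the array 20 were tested, 16 were higher and none lower, with a median difference of 4.21 against -0.06 for all genes. The median was 3.86 without the unactivated and 4.58 without the activated FL-Y array. Fewer chains were called in both fits, as was so for the collagen enzyme, matrix glycoprotein, contractile and mesenchymal transcription factor lists below. The fibril-forming chains led: Col1a2 read 42140.5 and 30499.9 against 95.1 and 342 (7.51 ± 0.62, adjusted p = 0.00188), and Col5a2, a chain that sets fibril width, read 31118 and 23303 against 23.5 and 116 (8.59 ± 0.64, adjusted p = 0.00149). The 3 chains of the microfibrillar type VI collagen moved together, Col6a1 by 7.26 ± 0.72, Col6a2 by 4.58 ± 0.53 and Col6a3 by 7.37 ± 0.86. Col5a1 was already bright in BMDC, at 1004 and 1072, and stood at 12787 and 7217 in FL-Y, a smaller difference of 3.19 ± 0.38. Col4a1, a chain of basement membranes, differed by 3.50 ± 0.40 from signals of 1177 and 691 in FL-Y. The 4 chain genes tested and not called were Col7a1, Col14a1, Col15a1 and Col18a1, and of these Col15a1 read 59.8 and 33 in FL-Y and 71.8 and 97.6 in BMDC.

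The enzymes that fold, trim and cross-link collagen were higher alongside it. Of 17 on the array 16 were tested and 13 were higher, none lower, with a median of 3.19. Serpinh1, the chaperone that procollagen needs to fold, read 17978 and 14578 against 76.3 and 87.2 (7.40 ± 0.30, adjusted p = 0.000539). The cross-linking oxidases Lox and Loxl1 differed by 6.56 ± 0.54 and 7.94 ± 0.34, and Bmp1, the protease that removes the procollagen tail, by 2.78 ± 0.37. The 3 members not called, Plod1, Plod3 and P4ha1, are hydroxylases with sizeable signals in both cell types. Plod3 read 6503 and 4764 in FL-Y and 4074 and 3594 in BMDC, and P4ha1 read 5493 and 3903 and 2826 and 4128.

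Of 30 matrix glycoprotein and proteoglycan genes on the array 27 were tested, 23 were higher in FL-Y and none lower, with a median of 5.17. Biglycan, encoded by Bgn, read 30408 and 23763 in FL-Y and 79 and 95.4 in BMDC, a difference of 8.06 ± 0.31 (adjusted p = 0.000539). Nid1, which links laminin to collagen IV, differed by 7.35 ± 0.37, the elastic fibre protein Fbln2 by 7.64 ± 0.41, its relative Fbln5 by 4.66 ± 0.41 and the laminin chain Lama4 by 5.15 ± 0.29. Fn1, fibronectin, stands apart from this list. It read 23125 and 20227 in FL-Y and 30732 and 20653 in BMDC, overlapping signals with a difference of -0.22 ± 0.34 (adjusted p = 0.657). Emilin1 and Lum were not called either, and Lum, a proteoglycan of many fibroblasts, was dim in FL-Y at 48.4 and 31.6. Of the matrix proteases and their inhibitors, 6 of 17 were higher and 4 lower, the latter Mmp12, Mmp8, Mmp13 and Mmp19. Adamts5 and Adamts1, which cut proteoglycans, differed by 3.78 ± 0.58 and 3.51 ± 0.37, whereas the collagenases Mmp8 and Mmp13 were lower, at -8.59 ± 0.30 and -5.89 ± 0.72. Mmp2, a gelatinase of fibroblasts, read 161 and 126 in FL-Y and 106 and 210.5 in BMDC and was not called (adjusted p = 0.909), while the cultured FDC arrays read 19842 and 8292.

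Against BMDC, the contractile genes gave the line a smooth muscle-like profile of actin and its partners. All 23 on the array were tested, 13 were higher and none lower, with a median of 3.33. Acta2, smooth muscle alpha actin, read 42509.8 and 29598 in FL-Y and 355 and 408 in BMDC, a difference of 6.49 ± 0.33 (adjusted p = 0.00073). Actg2, smooth muscle gamma actin, read 15697 and 9968 against 95.3 and 162 and differed by 6.49 ± 0.41. Myl9 and Mylk, the light chain of non-muscle and smooth muscle myosin and the kinase that activates it, differed by 6.29 ± 0.48 and 4.25 ± 0.45, and the tropomyosins Tpm1 and Tpm2 by 3.33 ± 0.33 and 5.57 ± 0.73. Cald1, caldesmon, differed by 7.02 ± 0.31 and Myh10, a non-muscle myosin heavy chain, by 7.15 ± 0.47. General parts of the cytoskeleton did not pass the test. Vim, vimentin, read 32344 and 28364 in FL-Y and 47050 and 40964 in BMDC (-0.54 ± 0.29, adjusted p = 0.23), and Myh9, a non-muscle myosin, read 16756 and 11293 in FL-Y and 14684 and 9944 in BMDC (0.19 ± 0.38). Des and Myh11, found in fully formed muscle, were not called, Des reading 29 and 19 in FL-Y and Myh11 209.8 and 75. In the fit of all 6 arrays described below, none of the 22 contractile genes tested was called between FL-Y and cultured FDC. Of 20 collagen chains 1 was higher and 2 lower in FL-Y than in FDC. Of 27 matrix glycoprotein and proteoglycan genes none was higher and 1 lower. Of all genes tested there 4.68% were higher and 6.0% lower. The contractile signals summed to 165041 and 285416 in FDC, 376080 and 279231 in FL-Y and 115875 and 103433 in BMDC.

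Transcription factors of mesenchymal cells separated the 2 cell types with no member in the other direction. Of 28 on the array 26 were tested and 21 were higher in FL-Y, with a median of 3.60. Snai2, a repressor of epithelial genes, read 5919 and 4899 in FL-Y and 15.9 and 7.1 in BMDC, a difference of 7.74 ± 0.33 (adjusted p = 0.000547). Osr1, a factor of embryonic mesenchyme, read 6086 and 3561 against 5.8 and 20 and differed by 7.48 ± 0.44. Prrx1, a homeobox factor of limb and fibroblast lineages, differed by 6.87 ± 0.37, Tbx18 by 5.99 ± 0.32 and the forkhead factor Foxc2 by 5.55 ± 0.30. Yap1 and Wwtr1, the coactivators held back by the Hippo pathway, differed by 5.48 ± 0.41 and 5.21 ± 0.31, and their DNA-binding partners Tead1 and Tead2 by 5.42 ± 0.29 and 5.80 ± 0.30. Ebf1 differed by 3.75 ± 0.48 and Twist1 by 3.45 ± 0.36. Msx1, Meis1, Meox1, Osr2 and Tead3 were not called.

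**Figure D2:**
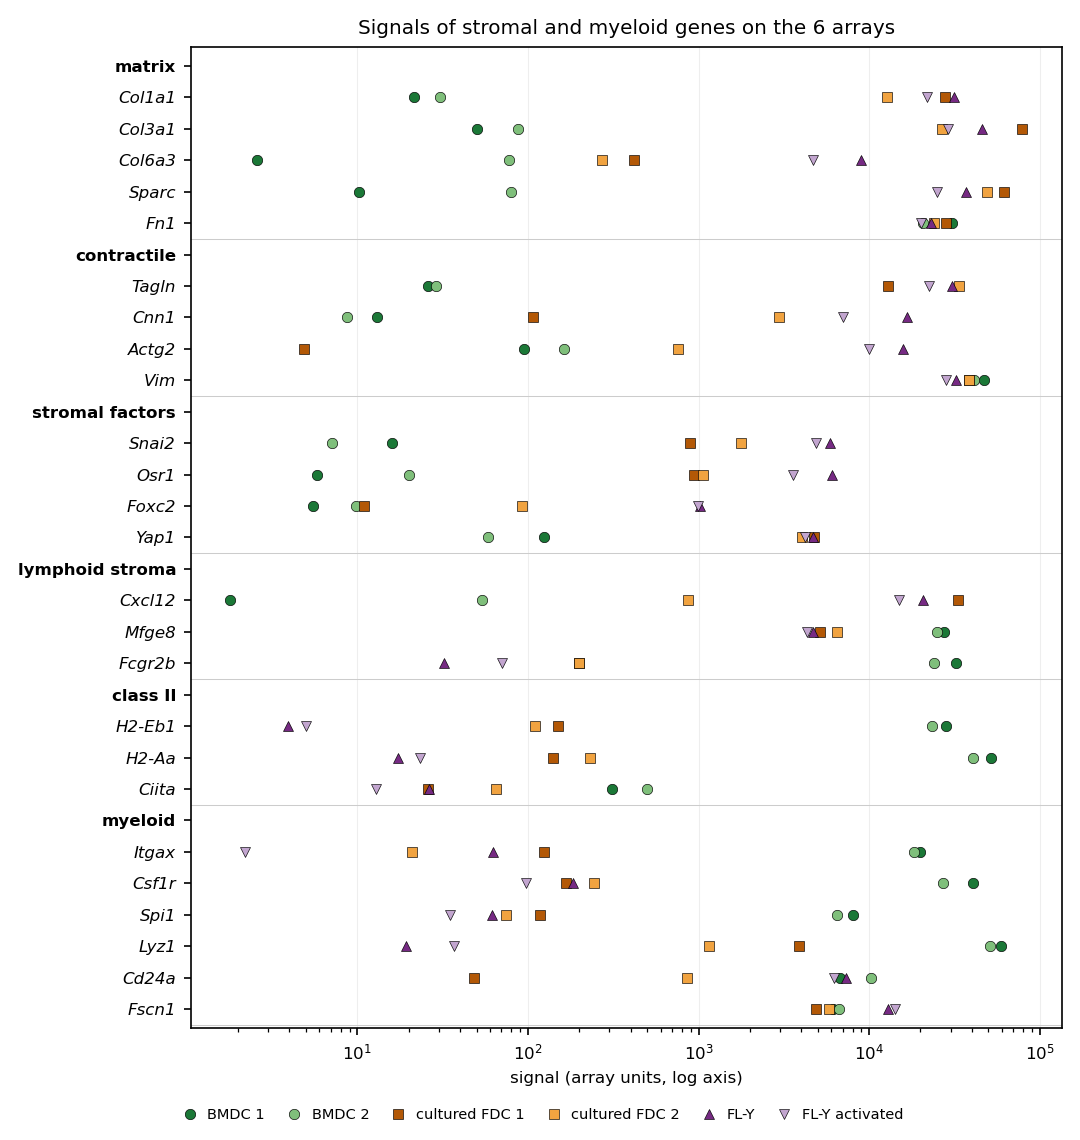
Signal of stromal, lymphoid stroma and myeloid genes on each of the 6 arrays (horizontal log axis, array units), 1 row a gene and 1 symbol an array: circles for BMDC, squares for cultured FDC and triangles for FL-Y. Both FL-Y arrays stand right of both BMDC arrays for Col1a1 and Snai2 and left of them for H2-Eb1 and Itgax, while for Fn1, Vim and Cd24a the symbols of the 2 cell types lie close together.

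Of 25 surface proteins and receptors tested, 17 were higher and 2 lower, with a median of 2.76. Without the unactivated FL-Y array 10 were higher, and without the activated one 11. Cdh11, the cadherin of mesenchymal cells, read 4118 and 9119.8 against 1.5 and 44.4 (7.66 ± 0.74, adjusted p = 0.00296). Pdgfra, the platelet-derived growth factor receptor of fibroblasts, differed by 5.98 ± 0.68, the caveola protein Cav1 by 5.83 ± 0.39 and the collagen receptor Ddr2 by 5.34 ± 0.31. The 2 lower members were Nt5e, the ectoenzyme CD73, at -5.46 ± 0.51, and Cd34, whose call was lost without the unactivated FL-Y array (adjusted p = 0.12). Pdpn, a marker of lymph node stroma, read 2948 and 3621 in FL-Y and 3702 and 2162 in BMDC and was not called (adjusted p = 0.711). Of 20 stromal growth factors 9 were higher and none lower, with a median of 1.92. Fgf7, a growth factor for epithelium, differed by 6.85 ± 0.80 and the heparin-binding factor Mdk by 4.93 ± 0.31, while Vegfa, Pdgfa and Fgf2 were not called. That count was 4 or 5 without one of the FL-Y arrays.

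The TGF-beta and BMP genes went both ways, 10 of 22 higher and 4 lower. Fstl1, a secreted glycoprotein, differed by 7.29 ± 0.29, the co-receptor Tgfbr3 by 6.07 ± 0.45, the latent binding protein Ltbp2 by 6.01 ± 0.49 and the BMP antagonist Grem1 by 4.19 ± 0.34. The ligands split: Tgfb2 read 980.5 and 877 in FL-Y and 74.7 and 28.8 in BMDC (3.93 ± 0.43), and Tgfb1 read 663 and 863 against 4772 and 5152 (-2.69 ± 0.31). The inhibitor Id2 and the induced matrix protein Tgfbi were lower, by -3.95 ± 0.41 and -3.35 ± 0.40. The remaining lower gene was the receptor Tgfbr1, at -1.49, whose call was lost without either FL-Y array (adjusted p = 0.183 and 0.166) or without the first BMDC array (0.057). In the insulin-like growth factor system 6 of 11 tested genes were higher. The binding proteins Igfbp7, Igfbp2 and Igfbp6 differed by 7.67 ± 0.30, 6.25 ± 0.40 and 4.82 ± 0.46, and Igf1 itself was not called, the 2 BMDC arrays reading 24636 and 2508. Among 15 Wnt pathway genes tested 8 were higher (3 without the unactivated FL-Y array) and 1, Axin2, lower, with the receptor Fzd2 at 5.60 ± 0.37 and the repressor Tcf7l1 at 4.70 ± 0.31. Axin2, itself a target of the pathway, read 6 and 26.7 against 87.7 and 94.6 (adjusted p = 0.0322), and that call was lost in each fit that left out 1 array, with adjusted p-values from 0.051 to 0.158.

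The genes known from FDC and other lymphoid stroma did not move as 1 group. Of 24 on the array 21 were tested, with 3 higher, 4 lower and 14 not called (5 higher and 5 lower without the first BMDC array, 2 higher without either FL-Y array), and their median of -0.41 turned positive when the arrays were rescaled to one median (0.45) or quantile normalized (0.05). Cxcl12, the chemokine of stromal niches, read 20767 and 15065 in FL-Y and 1.8 and 54 in BMDC. Fcgr2b, the inhibitory Fc receptor that FDC use to hold immune complexes and that B cells and myeloid cells also carry, read 32.3 and 70.9 against 32488 and 23877, a difference of -8.79 ± 0.41 (adjusted p = 0.00062). Mfge8, the bridge protein for dying cells that FDC secrete, was bright in both cell types, at 4688 and 4304 in FL-Y and 27358 and 25082 in BMDC, and lower in FL-Y by -2.54 ± 0.29 (adjusted p = 0.0046). Clu, clusterin, was lower, at -6.20 ± 0.38 and Bst1, an ectoenzyme of marrow stroma, by -4.76 ± 0.38. Vcam1, an adhesion molecule of FDC, was higher at 4816 and 6295 against 108 and 875, with an adjusted p of 0.0338 that became 0.105 without the unactivated and 0.136 without the activated FL-Y array. Its difference of 4.06 was 2.63 without the first BMDC array. Icam1 differed within the line, 115 on the unactivated and 789 on the activated array, and was not called. Ltbr, the receptor through which the line was activated, read 3016 and 2363 in FL-Y and 1422 and 1108 in BMDC (1.08 ± 0.32, adjusted p = 0.0645).

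MHC class II presentation was the one list in which every tested gene was lower in FL-Y, 11 of 11, with a median of -7.98. The share over all genes was 16.6%, but class II genes dim in FL-Y passed the filter through BMDC. Their calls were nearly fixed in advance, so the count is a description. H2-Aa, the alpha chain of I-A, read 17.4 and 23.3 in FL-Y and 51842 and 40411 in BMDC, a difference of -10.38 ± 0.31 (adjusted p = 0.000539). Cd74, the invariant chain that occupies the groove, read 34.8 and 78.9 against 45933 and 41222 and differed by -9.33 ± 0.41. H2-Ab1 differed by -7.98 ± 0.36, and the peptide-loading chains H2-DMa and H2-Oa by -6.30 ± 0.37 and -5.82 ± 0.33. Ciita, the coactivator that switches this gene set on, read 26.2 and 12.8 in FL-Y and 312 and 498 in BMDC, a difference of -3.63 ± 0.39 (adjusted p = 0.00401). The count was 10 or 11 under each setting tried.

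Dendritic cell markers were lower for 12 of 18 tested, with 1 higher and a median of -4.71. Itgax, the integrin CD11c, read 62.3 and 2.2 in FL-Y and 19951 and 18428 in BMDC, a difference of -9.08 ± 0.75 (adjusted p = 0.00187). Ccr7, the receptor that guides mature dendritic cells to lymph nodes, differed by -8.46 ± 0.32, the maturation marker Cd83 by -7.84 ± 0.51 and the costimulatory ligand Cd86 by -5.64 ± 0.67. The factors Irf4 and Irf8, which direct dendritic cell subsets, differed by -6.94 ± 0.48 and -5.66 ± 0.45. Flt3 and Zbtb46, which separate dendritic cells from macrophages, were not called, with BMDC signals of 427 and 82.2 for Flt3 and 280 and 498 for Zbtb46. Fscn1, the actin-bundling protein fascin, was the 1 higher member, at 12892 and 14129 against 6113 and 6684 (1.08 ± 0.29, adjusted p = 0.0494). Leaving out any 1 of the 4 arrays lost that call, with adjusted p-values of 0.214 and 0.28 without the unactivated and the activated FL-Y array and 0.076 and 0.059 without the first and the second BMDC array. Cd24a, a glycoprotein of dendritic cells and of many dividing cells, read 7324 and 6254 in FL-Y and 6757 and 10223 in BMDC and was not called.

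Macrophage and monocyte genes were lower for 19 of 20 tested, with a median of -7.71. Lyz1 and Lyz2, the lysozymes, differed by -10.38 ± 0.35 and -9.33 ± 0.30. They are near-identical copies, so their probe sets may not tell them apart. Csf1r, the receptor on which macrophages depend, read 185 and 97.5 in FL-Y and 40660.2 and 26995 in BMDC, a difference of -7.80 ± 0.42 (adjusted p = 0.000755). Adgre1, which encodes the macrophage antigen F4/80, read 48.3 and 49.7 against 8197 and 8172 and differed by -7.02 ± 0.28. Mrc1, the mannose receptor, differed by -5.90 ± 0.76, Cd68 by -8.37 ± 0.53 and Cd14, the co-receptor for bacterial lipopolysaccharide, by -4.46 ± 0.43. Cx3cr1 was the member not called.

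Of the mast cell and granulocyte list 9 of 15 genes were lower in FL-Y and 6 were not called. Mpo, the myeloperoxidase of neutrophil precursors, read 21764 and 5731 in BMDC and 33.6 and 8.1 in FL-Y (-8.42 ± 0.74, adjusted p = 0.00228). Elane, neutrophil elastase, read 1359 and 1689.9 against 35.5 and 28.1 (-5.06 ± 0.31). How far granulocytes and macrophages among the bone marrow cultures set these differences was not tested.

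The machinery that leukocytes share depended little on the setting. Of 26 leukocyte signalling genes tested 25 were lower in FL-Y, with a median of -6.84, and between 24 and 26 were lower in each fit tried. Ptprc, the pan-leukocyte phosphatase CD45, read 12.8 and 4.1 in FL-Y and 13794 and 7715 in BMDC, a difference of -8.86 ± 0.42 (adjusted p = 0.000626). Tyrobp, an adaptor with an activating motif, read 18.1 and 24.8 against 37673 and 24161 and differed by -9.73 ± 0.36. Itgb2, the beta chain of leukocyte integrins, differed by -9.27 ± 0.39, the blood cell GTPase Rac2 by -9.37 ± 0.29, the actin regulator Coro1a by -8.97 ± 0.50 and the kinase Syk by -6.52 ± 0.59.

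Receptors for microbes and antibodies were lower in most cases. Of 12 C-type lectins tested 9 were lower, led by Clec4n, the receptor Dectin-2, at -10.32 ± 0.39, and Clec7a, the beta-glucan receptor Dectin-1, at -9.89 ± 0.56. Of 8 Fc receptor genes 6 were lower: Fcer1g, the common gamma chain, read 4.9 and 2.9 in FL-Y and 20454 and 19960.1 in BMDC and differed by -10.13 ± 0.29, and Fcgr3 by -9.68 ± 0.40. Of 17 Toll-like receptor pathway genes 11 were lower, including Tlr2 at -4.94 ± 0.56, Tlr4 at -4.57 ± 0.66, Tlr7 at -4.92 ± 0.43 and Tlr13 at -5.85 ± 0.62. The adaptors did not follow all the receptors. Ticam1 and Tirap were not called, and Tlr3 read 79.6 and 84.5 in FL-Y and 86.3 and 52.4 in BMDC. Of the phagocyte oxidase genes 4 of 5 were lower, with Cybb, the electron-carrying subunit, at -8.83 ± 0.32, Ncf1 at -7.04 ± 0.40 and Ncf4 at -9.69 ± 0.43, and Cyba at -1.65 ± 0.30, a call lost without either FL-Y array (adjusted p = 0.109 and 0.136).

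Myeloid transcription factors were lower for 12 of 21 genes, with a median of -2.94. Spi1, which encodes PU.1, the factor that commits progenitors to the myeloid lineage, read 61.5 and 35 in FL-Y and 8062 and 6459 in BMDC, a difference of -6.89 ± 0.36 (adjusted p = 0.00073). Ikzf1, Ikaros, differed by -6.78 ± 0.30, Nfe2 by -7.17 ± 0.31, Myb by -5.53 ± 0.43 and Mitf by -4.29 ± 0.38. The 9 not called include Cebpb, at 3900.2 and 2959 against 7385 and 6668, and Runx1, at 533 and 443 against 613 and 597, factors that many cell types outside blood use.

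**Figure D3:**
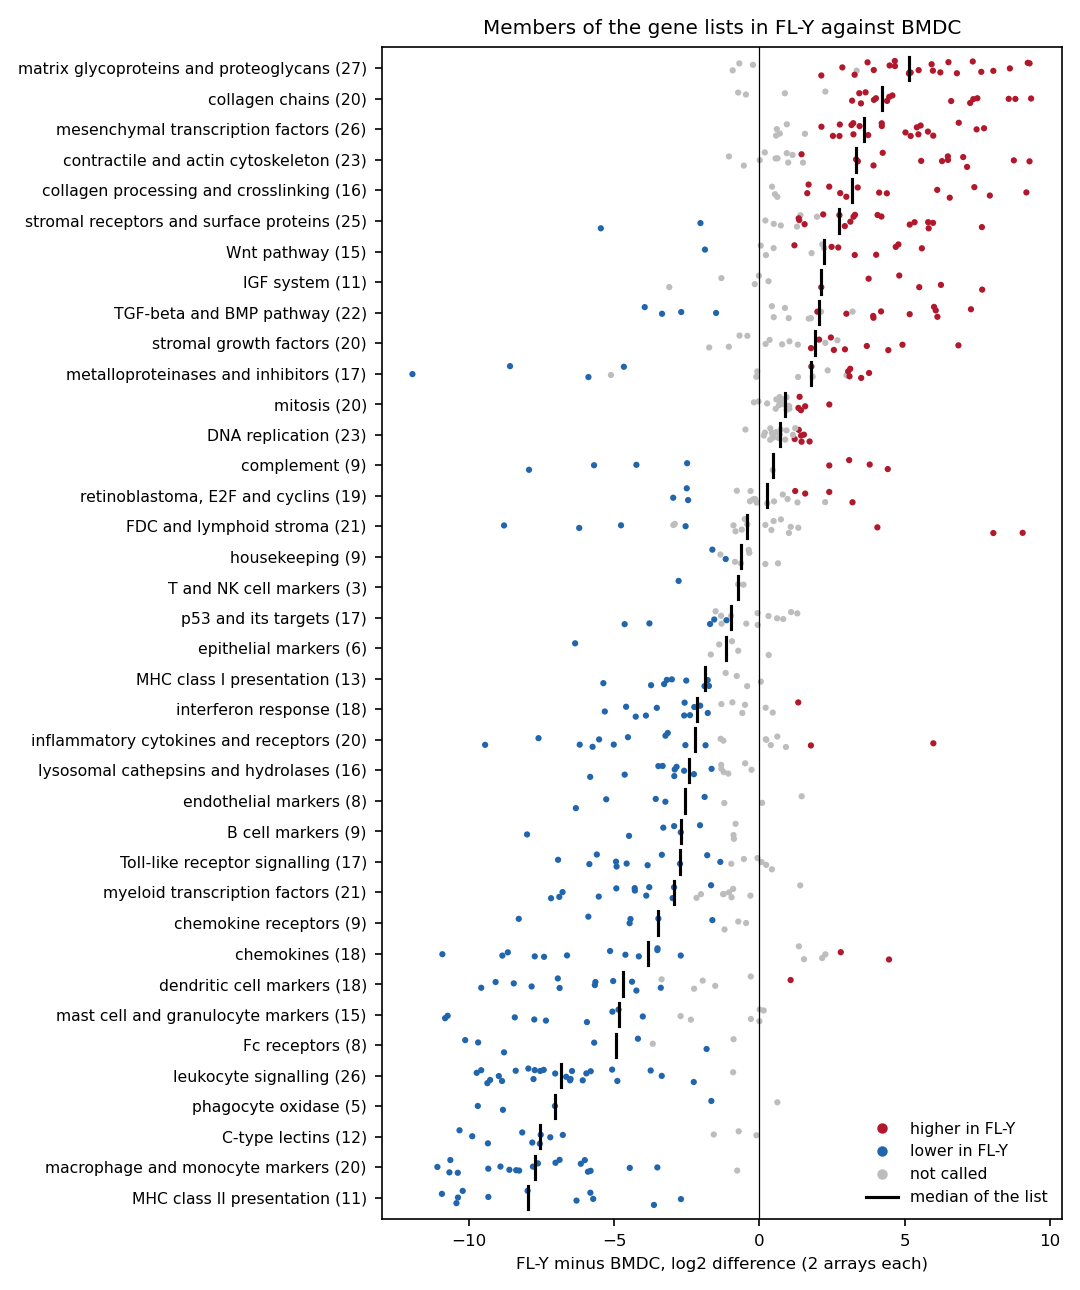
Difference FL-Y minus BMDC (log2 scale, horizontal axis) of every tested gene of each list, 1 row a list and 1 point a gene, red for called higher, blue for called lower and grey for not called, with a bar at the list's median. The collagen and matrix rows lie to the right (medians 4.21 and 5.17), the class II and leukocyte signalling rows to the left (medians -7.98 and -6.84), and the replication and mitosis rows just right of 0 (medians 0.70 and 0.90).

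The upstream sequence of a few of these genes is shown because regulators of both lineages, Spi1, Tead1 and Tead2, are themselves among the genes called. The search covered 4 short motifs on both strands in the 250 bases before the first listed start of each gene: GAGGAA, the core of PU.1 sites, TGANTCA, bound by AP-1, GGAATG, bound by TEAD factors, and the CArG box of serum response factor, a motif with degenerate positions. GAGGAA and GGAATG share the letters GGAA, so one stretch can match both. A window was on hand for 10137 of the 12532 genes tested, and a match is a description of the letters only. GGAATG was in 10.3% of those windows and 12.6% of all 27025 windows searched, which leave out 1 chromosome. Over all genes called higher it was in 12.8% of windows, and over all called lower in 9.99%. In the lists, chosen with earlier results known, it was in 21 of 98 windows (21.4%) of the stromal genes called higher. For the myeloid list genes called lower it was in 4 of 79 (5.06%). Those windows cover only part of the 142 stromal and 109 myeloid genes so called. GAGGAA was in 22.4% of the windows of genes tested, in 35.4% of the myeloid and 29.6% of the stromal ones. Over all genes called higher it was in 23% of windows, and over all called lower in 27.5%. The CArG box was in 1.19% of the genes tested, in 3 of the 98 stromal and 1 of the 79 myeloid windows, and TGANTCA was in 4.45%, 5.1% and 5.06% of the 3 sets. The windows below are from RefSeq on build GRCm38.p6, 5′ to 3′ along the gene, with the match in capitals. For each motif, the gene of the largest difference whose window holds it was picked from the stromal and from the myeloid lists. Not all of these windows are printed. Those left out are of the stromal Bgn (GAGGAA, higher by 8.06) and Col6a1 (TGANTCA, higher by 7.26). They are also of the myeloid Lyz1 (GGAATG, lower, at -10.38) and Mpeg1 (CArG box, lower, at -8.91). Each motif thus had a match in genes of both directions. Col3a1 (chr1:45311288-45311537, plus strand) holds GGAATG on the opposite strand at 168 bases before the start, Myl9 (chr2:156775214-156775463, plus strand) a CArG box at 161, Ctss (chr3:95526536-95526785, plus strand) GAGGAA at 164 and Itgax (chr7:128129300-128129549, plus strand) TGANTCA at 56.
Col3a1: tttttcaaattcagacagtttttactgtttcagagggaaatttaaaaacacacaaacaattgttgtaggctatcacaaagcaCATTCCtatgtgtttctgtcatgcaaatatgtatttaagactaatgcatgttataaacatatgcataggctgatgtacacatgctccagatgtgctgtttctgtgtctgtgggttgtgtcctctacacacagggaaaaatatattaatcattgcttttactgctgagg
Myl9: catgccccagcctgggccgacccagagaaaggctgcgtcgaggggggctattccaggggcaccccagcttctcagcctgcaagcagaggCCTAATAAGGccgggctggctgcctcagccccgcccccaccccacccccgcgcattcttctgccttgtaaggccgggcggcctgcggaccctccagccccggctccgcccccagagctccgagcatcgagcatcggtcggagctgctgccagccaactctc
Ctss: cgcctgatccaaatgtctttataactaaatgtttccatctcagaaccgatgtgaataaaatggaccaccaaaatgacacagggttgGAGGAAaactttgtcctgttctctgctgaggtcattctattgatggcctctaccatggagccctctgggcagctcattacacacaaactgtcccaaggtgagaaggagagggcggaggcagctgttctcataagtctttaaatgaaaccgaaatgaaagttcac
Itgax: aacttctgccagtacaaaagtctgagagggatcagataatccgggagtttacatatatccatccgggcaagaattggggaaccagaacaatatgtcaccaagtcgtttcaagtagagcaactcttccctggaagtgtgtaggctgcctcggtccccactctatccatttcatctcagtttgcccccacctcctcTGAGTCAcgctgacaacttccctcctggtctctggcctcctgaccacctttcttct
Of these genes Col3a1 and Myl9 were higher in FL-Y by 8.82 and 6.29, and Ctss and Itgax were lower, at -10.93 and -9.08.

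Chemokines were lower for 12 of 18 genes tested and higher for 2, with a median of -3.83. Ccl22, which draws T cells to dendritic cells, read 6.1 and 4.7 in FL-Y and 8256 and 27023 in BMDC, a difference of -9.58 ± 0.60 (adjusted p = 0.00102). Pf4 and Ppbp, chemokines of platelets and myeloid cells, differed by -8.66 ± 0.46 and -7.73 ± 0.39. Ccl9 was bright in both cell types, at 2575 and 6305 against 46152 and 46029, and lower in FL-Y by -3.51 ± 0.49 (adjusted p = 0.00831). The 2 higher members were Cxcl5, at 1548 and 4929 against 294 and 37.2, and Ccl7, at 2577 and 5055 against 300.5 and 843. Both calls rest on both FL-Y arrays: without the unactivated one the adjusted p was 0.055 for Cxcl5 and 0.064 for Ccl7, and without the activated one 0.131 and 0.141. Cxcl10 and Cxcl1 differed between the unactivated and the activated FL-Y array, 106 and 1232 for Cxcl10 and 988 and 4580.3 for Cxcl1, and were not called. Among the receptors 6 of 9 were lower, with Ccr1 at -8.28 ± 0.40 and Cxcr4, the receptor of Cxcl12, at -5.89 ± 0.47. FL-Y thus had high signals of the ligand and low signals of its receptor, and BMDC the reverse.

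Of 20 cytokine and cytokine receptor genes tested 11 were lower and 2 higher, and 7 were lower without the unactivated FL-Y array. Csf2rb, the shared beta chain of the receptors for GM-CSF, IL-3 and IL-5, read 8.4 and 1.7 in FL-Y and 11265 and 15406 in BMDC, a difference of -9.44 ± 0.35 (adjusted p = 0.000539). The interleukin 1 antagonist Il1rn differed by -7.60 ± 0.44 and Il1b by -5.52 ± 0.52. Osmr, the oncostatin M receptor of stromal cells, was higher at 2701 and 2048 against 42.8 and 10.1 (5.99 ± 0.49, adjusted p = 0.00186), whereas Il6st, the chain it pairs with, read 5183 and 4041 in FL-Y and 5889 and 1501 in BMDC and was not called. The other higher member, Lifr, the receptor of leukaemia inhibitory factor, stood at 1.77 and lost its call without either FL-Y array (adjusted p = 0.097 and 0.108). Lysosomal genes were lower for 10 of 16, with a median of -2.42, and FL-Y kept sizeable signals. That gap was smaller than in the class II, macrophage and leukocyte signalling lists, and close to that of the Toll-like receptor list. The count was 6 without the unactivated and 4 without the activated FL-Y array. Ctsd, a protease of all lysosomes, read 3978 and 3387 in FL-Y and 34286 and 22476 in BMDC (-2.91 ± 0.35, adjusted p = 0.00534), and Ctsz differed by -2.85 ± 0.32. Lamp1 and Lamp2, structural proteins of the lysosome, were not called, Lamp1 reading 12876 and 11438 in FL-Y and 22403 and 12938 in BMDC.

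MHC class I presentation was lower in FL-Y for 9 of 13 genes, with none higher and a median of -1.89. Psmb9, a subunit of the immunoproteasome, read 111 and 159 in FL-Y against 5960.2 and 6217 in BMDC, a difference of -5.37 ± 0.32 (adjusted p = 0.000877). Psmb8, another, read 566 and 1126 against 9099.7 and 12735, a difference of -3.73 ± 0.44 (adjusted p = 0.0052). Tap1, a chain of the peptide transporter, differed by -3.28 ± 0.33. H2-D1, a class I heavy chain with close relatives that its probe sets may also read, read 2907 and 3593 against 36668 and 23771 and differed by -3.19 ± 0.36. B2m, the light chain of class I, read 18444 and 18573 in FL-Y and 43539 and 23181 in BMDC and was not called (adjusted p = 0.202), as were the folding proteins Calr and Pdia3. The count was 6 with the arrays rescaled to one median and 4 or 5 without one of the FL-Y arrays. Against cultured FDC, with all 6 arrays in 1 fit, 7 of the 13 were lower in FL-Y, beside 6.0% of the 12641 genes tested there. The lists were chosen with earlier results known, and genes dim in FL-Y could pass that filter through FDC or BMDC. Every list count against FDC given here is therefore a description. For Psmb9 that difference was -5.14 ± 0.51 (adjusted p = 0.0112), from FDC signals of 3201 and 8415. The calls between FL-Y and FDC rest on both FL-Y arrays: by limma's adjusted p no probe set was called without the unactivated one and 1 without the activated one, although 4999 and 4205 had an unadjusted p under 0.05. The sizes moved less, to -4.91 and -5.38 for Psmb9 in those fits.

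The interferon-response genes showed a like picture. Against BMDC 11 of 18 were lower in FL-Y and 1 higher, with a median of -2.14, and 6 or 5 were lower without the unactivated or the activated FL-Y array. The higher gene was Ifit2, with an adjusted p of 0.0294 that became 0.142 and 0.206 in those fits. Usp18, which damps interferon signalling, read 23.9 and 25.4 in FL-Y and 2328 and 1015 in BMDC, a difference of -5.32 ± 0.46 (adjusted p = 0.0022). Irf7 and Ifih1, a factor and an RNA sensor of the type I response, differed by -4.26 ± 0.76 and -3.53 ± 0.31, and the antiviral proteins Mx1 and Rsad2 by -4.59 ± 0.55 and -3.91 ± 0.40. Against cultured FDC 14 of the 18 were lower in FL-Y, beside 6.0% of all genes tested there, and none higher. Genes dim in FL-Y and BMDC passed the filter only through FDC, where they are bright. Such calls were nearly fixed in advance, so the count is a description. The median was -4.34 beside -0.15 for all genes. Iigp1, a GTPase that attacks the vacuoles of intracellular microbes, was called against FDC and not against BMDC. It read 30.4 and 37.9 in FL-Y and 54 and 62.7 in BMDC, which was not called (adjusted p = 0.196), and 24305 and 48445 in cultured FDC, a difference of -9.48 ± 0.41 from FL-Y (adjusted p = 0.00289). Ifit1 and Ifit3 were likewise not called against BMDC and lower than in FDC, by -4.67 ± 0.38 and -5.47 ± 0.65. As for class I, none of these calls against FDC stood without either FL-Y array.

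Cxcl14 and Ccl8 are shown because they stood on opposite sides of BMDC in the line and in cultured FDC, so that their differences between FL-Y and FDC are a description. Cxcl14, a chemokine of skin and stroma, read 2.6 and 1 in FL-Y, 3521 and 2083 in BMDC and 19395 and 20606 in FDC. FL-Y was lower than BMDC by -7.41 ± 0.37 (adjusted p = 0.000712) and lower than FDC by -10.29 ± 0.37, while FDC were higher than BMDC by 2.88. Ccl8, a chemokine for monocytes, read 45.1 and 7.1 in FL-Y, 440 and 346 in BMDC and 21002 and 7304 in FDC, with differences of -3.51 ± 0.55 from BMDC and -8.45 ± 0.68 from FDC. In the complement system, 4 of 9 genes tested were higher and 4 lower against BMDC, with 2 higher without the unactivated and 2 lower without the activated FL-Y array. Of the higher genes Serping1 lost its call without either FL-Y array (adjusted p = 0.098 and 0.064), Cd59a without the unactivated one (0.074) and Masp1 without the first BMDC array (0.051), and of the lower ones C5ar1 without either FL-Y array (0.071 and 0.085) and Cfb without the activated one (0.072). Cfp, properdin, was lower, at -7.93 ± 0.32 and C3ar1, the receptor for the C3a peptide, by -5.69 ± 0.64, while C1s1, a protease of the classical pathway, was higher, at 663 and 570.1 against 67.6 and 52.4 (3.09 ± 0.30). C1s1 was brighter still in FDC, at 15516 and 10653, a difference of -4.35 ± 0.35 (adjusted p = 0.00877). That call of C1s1 against FDC was lost without either FL-Y array.

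**Figure D4:**
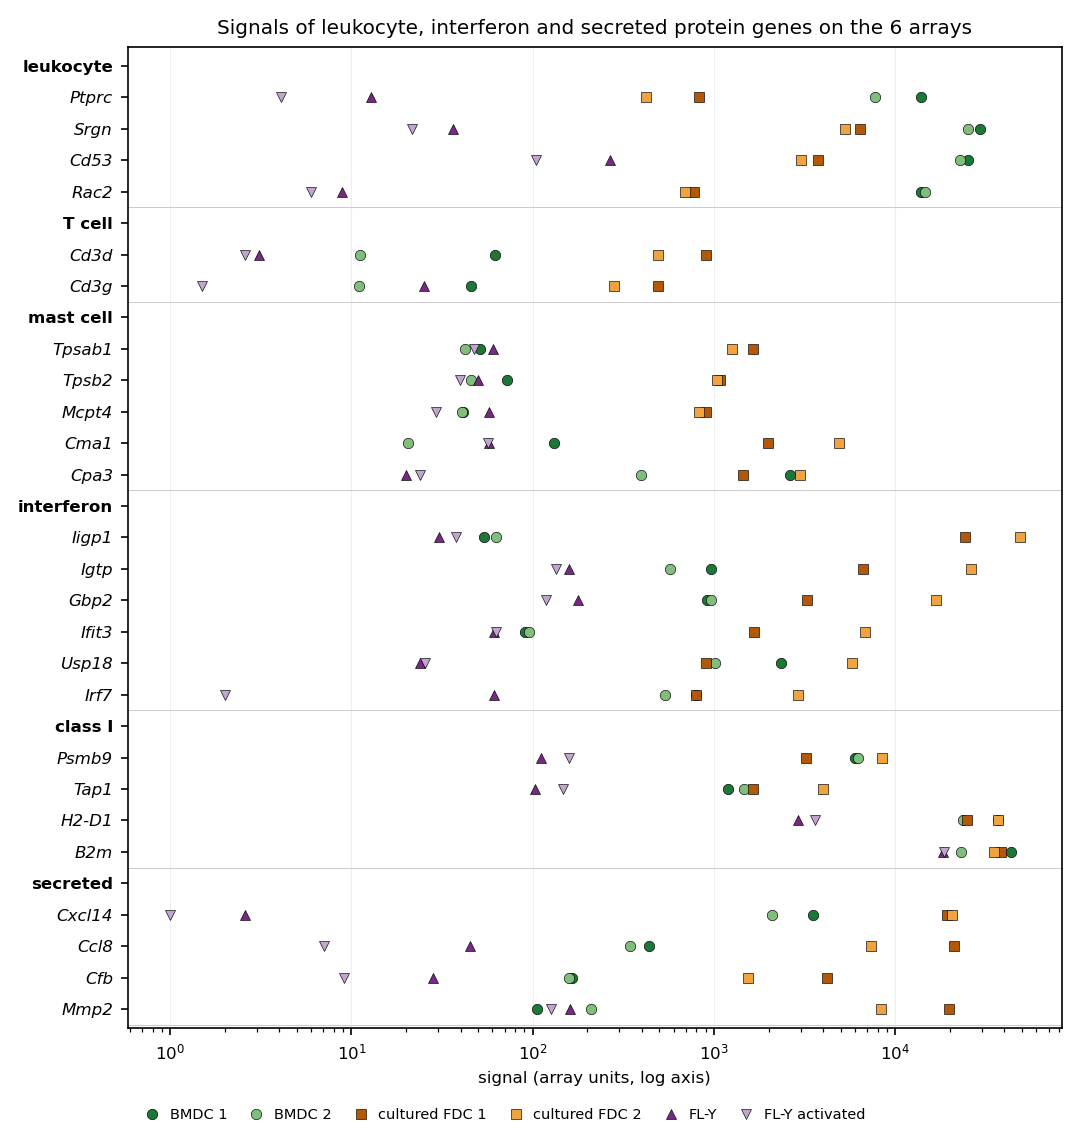
Signal of leukocyte, interferon-response and secreted protein genes on each of the 6 arrays (horizontal log axis, array units), 1 row a gene, circles for BMDC, squares for cultured FDC and triangles for FL-Y. For Ptprc and Srgn the FDC squares lie between FL-Y and BMDC, and for Cxcl14 and Iigp1 they lie to the right of all other arrays.

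Leukocyte genes read lower on the FL-Y arrays than on the cultured FDC arrays as well. Ptprc read 823 and 423 in FDC, between FL-Y at 12.8 and 4.1 and BMDC at 13794 and 7715, and FL-Y was lower than FDC by -4.77 ± 0.49 (adjusted p = 0.0121). Srgn, the core protein of leukocyte granules, read 36.5 and 21.7 in FL-Y, 6376 and 5266 in FDC and 29148 and 25089 in BMDC, with FL-Y lower than FDC by -7.09 ± 0.34 (adjusted p = 0.00381). Over the list 11 of 26 leukocyte signalling genes and 6 of 11 class II genes were lower in FL-Y than in FDC, beside 6.0% of the 12641 genes tested there. These counts too are a description, since genes dim in FL-Y passed the filter through the other cells. Cd3d, a chain of the T cell receptor complex, read 3.1 and 2.6 in FL-Y, 62 and 11.2 in BMDC and 898 and 489 in FDC. Tpsab1, a mast cell tryptase, read 60.1 and 47.2 in FL-Y, 51.5 and 42.3 in BMDC and 1651 and 1253 in FDC. On the FL-Y arrays the 3 T cell markers summed to 57.2 and 23.5 and the 3 mast cell markers to 168 and 116, against 1537 and 900 and against 3641 and 3112 on the FDC arrays. The summed signal of the 4 leukocyte markers was 2269 and 1989 on the FDC arrays against 75.2 and 128 in FL-Y, and the part that such cells among the cultured FDC have in the differences from FL-Y was not tested. The calls against FDC named here were lost without either FL-Y array.

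Markers of other cell types read low in the line. Of 9 B cell genes tested 6 were lower in FL-Y, with Ighm, the heavy chain of IgM, at 3 and 2 against 3569.6 and 5072 (-8.00 ± 0.32, adjusted p = 0.000539). That count was 2 without the unactivated and 1 without the activated FL-Y array. The endothelial genes Vwf and Pecam1, which platelets and leukocytes also carry, were lower, at -6.32 ± 0.59 and -5.27 ± 0.29, and 5 of 8 tested were lower, or 3 of 8 without the unactivated FL-Y array. The other 3 were Tie1, Flt1, whose call was lost without either FL-Y array (adjusted p = 0.154 and 0.133), and Esam, whose call was lost without the unactivated one (0.064). Cdh1, the cadherin of epithelium and of some dendritic cells, read 2.7 and 2.6 in FL-Y and 1356 and 1352 in BMDC (-6.34 ± 0.28). Epcam was not called, at 113 and 74.7 against 73.2 and 68.6. Of 9 housekeeping genes 2, Gusb and Sdha, were called lower and none higher, with a median of -0.64, and with the arrays rescaled to one median none was called and the median was -0.07. Without either FL-Y array, too, both calls were lost (adjusted p from 0.153 to 0.24), as they were without the first BMDC array (0.066 and 0.081). Rplp0, a ribosomal protein, read 33110 and 25514 in FL-Y and 36456 and 38640.4 in BMDC.

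The DNA replication and mitosis genes that were called between FL-Y and BMDC were all higher in FL-Y, and most members of both lists were not called. Of 23 DNA replication genes 6 were higher in FL-Y than in BMDC and none lower, with a median of 0.70, and of 20 mitosis genes 5 and none, with a median of 0.90. The 6 were Mcm2, Gins2, Orc1, Rfc3, Pola1 and Tk1, with differences from 1.22 to 1.73, and all 6 calls were lost without either FL-Y array (adjusted p from 0.086 to 0.257); those of Mcm2, Orc1 and Pola1 were also lost without 1 BMDC array, either one for Mcm2 (0.058 and 0.059), the first for Orc1 (0.074) and the second for Pola1 (0.071). Plk1, Ttk, Tpx2 and Prc1, parts of the spindle and its control, differed by 1.35 to 1.58 and were lost likewise (adjusted p from 0.117 to 0.233), and all but Plk1 also without the first BMDC array (0.051 to 0.069). With the arrays rescaled to one median 11 genes of each list were higher, with medians of 1.27 and 1.46. The mitosis count was 2 without the first and 8 without the second BMDC array, and the replication count 4 without the first. Mki67, the proliferation antigen, read 6051 and 6499 in FL-Y and 6679 and 6133 in BMDC (-0.03 ± 0.29, adjusted p = 0.948). Mcm6, part of the replicative helicase, read 8377 and 7808 in FL-Y and 5040.3 and 4905 in BMDC (0.70 ± 0.28, adjusted p = 0.129). Gmnn, which stops relicensing of replication origins, read 3529 and 4114 in FL-Y and 2885 and 3859 in BMDC and was not called. Foxm1, a factor that drives mitotic genes, had the largest difference within the mitosis list, at 889.7 and 1053 against 169 and 172 (2.41 ± 0.29, adjusted p = 0.00562). That call was lost without the activated FL-Y array. Against FDC 17 of the 23 replication genes and 15 of the 20 mitosis genes were higher in FL-Y, beside 4.68% of all genes, with medians of 3.15 and 2.98. Mki67 read 379 and 854 in FDC, so FL-Y was higher by 3.43 ± 0.44 (adjusted p = 0.017), and Gins1, a helicase partner, was higher by 3.54 ± 0.31 (adjusted p = 0.00989). None of the calls against FDC among these genes stood without either FL-Y array.

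The retinoblastoma family, which SV40 large T binds, and its E2F partners did not go one way. Of 19 genes of the retinoblastoma, E2F and cyclin list 4 were higher and 3 lower against BMDC, and without the unactivated FL-Y array none was higher and 1 lower, without the activated one 1 and 2. The higher genes besides Cdkn2a were E2f7, Ccnd1 and Ccne2, at 1.58, 3.21 and 1.23, and all 3 calls were lost without either FL-Y array (adjusted p from 0.059 to 0.271), that of Ccne2 also without either BMDC array (0.073 and 0.055). E2f2 read 50 and 73.1 in FL-Y and 585 and 558 in BMDC (-2.97 ± 0.31, adjusted p = 0.00384), while E2f1 read 987 and 943 in FL-Y and 816 and 777 in BMDC and was not called. Rb1 and Rbl2, the retinoblastoma protein and its relative p130, were lower, at -2.45 ± 0.36 (adjusted p = 0.00965) and -2.50 ± 0.31 (adjusted p = 0.00605). Without the unactivated FL-Y array those p-values became 0.067 and 0.055, and without the activated one that of Rb1 became 0.065. Cdkn2a, the locus of p16 and Arf, was higher, at 829 and 505 against 97.6 and 125 (2.41 ± 0.37, adjusted p = 0.0111). That call was lost without the unactivated array. Cultured FDC read 979 and 966 for Cdkn2a.

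Of 17 genes known as targets of p53, 5 were lower in FL-Y and none higher, with a median of -0.98, but with the arrays rescaled to one median 3 were higher and 2 lower, and without the unactivated FL-Y array 2 were lower, without the activated one 3. Cdkn1a, the p21 inhibitor of cyclin-dependent kinases, read 581 and 326 in FL-Y and 4929 and 7768 in BMDC, a difference of -3.79 ± 0.43 (adjusted p = 0.0046). Trp53inp1, a stress protein induced by p53, read 89.4 and 14.4 against 1835 and 979 and differed by -4.64 ± 0.70 (adjusted p = 0.0105). Cultured FDC read 12813 and 9115 for Cdkn1a, from which FL-Y differed by -4.59 ± 0.44 (adjusted p = 0.0109). Other targets did not follow: Bbc3, the death protein Puma, read 337 and 259.6 in FL-Y and 318 and 527 in BMDC and was not called, nor were Gadd45a, Phlda3 and Zmat3. The lower genes also include Mdm2, which turns p53 over, Ccng1 and Btg2, at -1.55, -1.13 and -1.70, and these 3 calls were lost without either FL-Y array (adjusted p from 0.099 to 0.253), and also without the first BMDC array for Btg2 (0.073), the second for Mdm2 (0.066) and either for Ccng1 (0.066 and 0.053). The call of Cdkn1a against FDC was lost without either FL-Y array, while its call against BMDC was kept in each fit that left out 1 array.

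**Figure D5:**
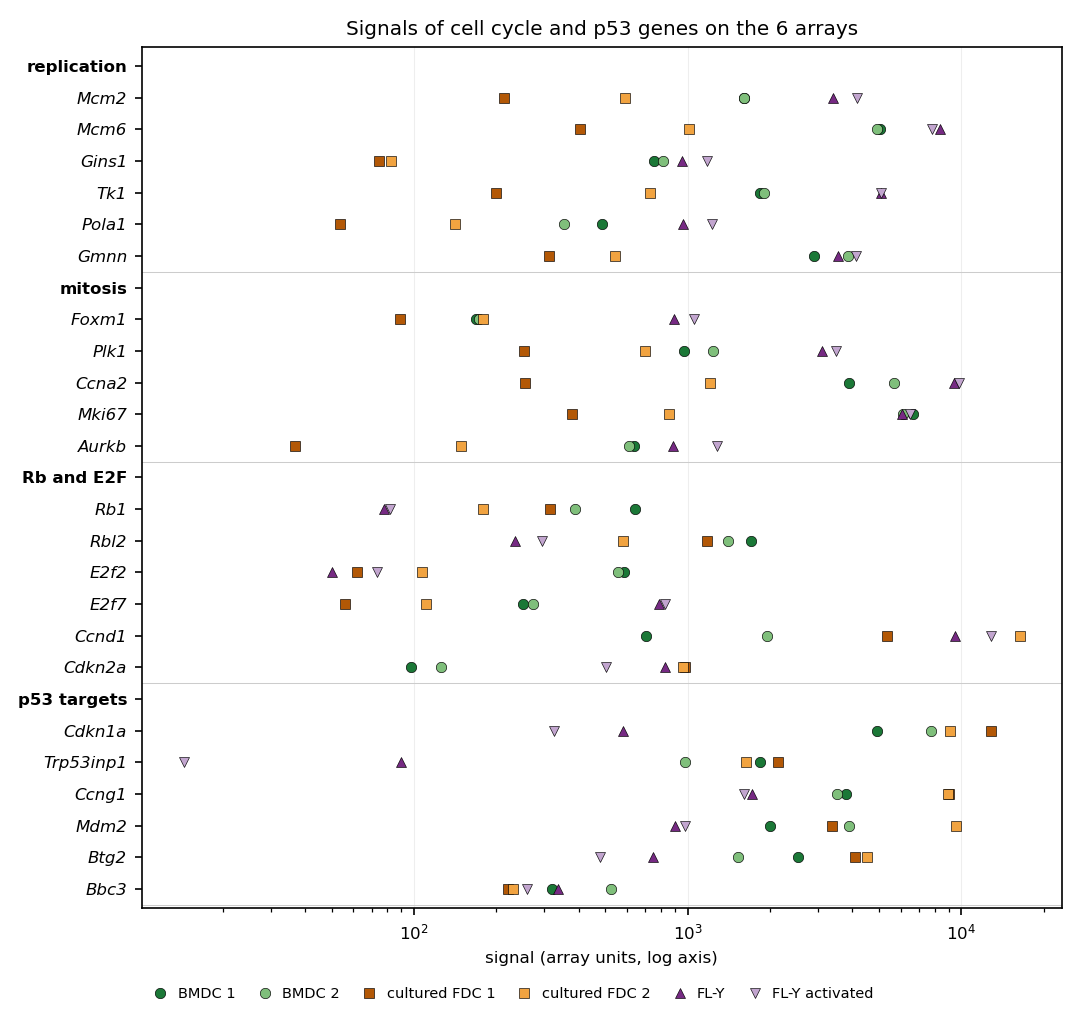
Signal of replication, mitosis, retinoblastoma and p53 genes on each of the 6 arrays (horizontal log axis, array units), 1 row a gene, circles for BMDC, squares for cultured FDC and triangles for FL-Y. The FL-Y triangles lie near the BMDC circles and right of the FDC squares for Mki67 and Gmnn, and left of both for Cdkn1a and Trp53inp1.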

How the data were processed

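The labelled material on the study's 6 arrays was made from total RNA with the One-Cycle Target Labeling Kit. The deposited values are linear intensity values per probe set, which the authors had scaled so that each array has one trimmed mean; which program did this is not given in the sources used here, and detection calls were not used. Of 45101 probe sets, 64 were controls and left out; 34945 name 1 gene in GEO's platform annotation, 932 name several and 9160 are not listed there. Intensities were set on the scale log2(signal + 14.2), where the offset is the 20th percentile of an array's signals, taken as the median of the 6 arrays, and probe sets whose mean lay above the 40th percentile were kept (signal 38.7 over 4 arrays). Signals under the offset have no dependable order. limma 3.58.1 in R 4.3.3 (lmFit, eBayes, Benjamini-Hochberg) compared the 2 FL-Y with the 2 BMDC arrays, with 2 residual degrees of freedom and a prior of 3.20; FL-Y against FDC came from 1 fit of all 6 arrays as 3 groups. Of each gene the probe set with the highest mean was read. The rule named the 10 largest rises and falls, up to 4 called members of each of 38 lists with the largest difference, and the cell type markers; the other genes named were chosen for their roles after their values were seen. Members and lists were chosen with earlier results of these data known. Alternatives changed the offset, scaling, filter, prior, probe set rule, the arrays in the fit and each array in turn.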

Additional observations from a re-analysis of the deposited data

Results flagged for a closer look

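Of the genes named here, 8 were called on opposite sides of BMDC in FL-Y and in cultured FDC, and 8 of these were also called between FL-Y and FDC. The difference between FL-Y and FDC is the sum of the 2 gaps by which these genes were picked, so it is given as a description. For Cxcl14 the difference FL-Y minus FDC was -10.29 ± 0.37, with FL-Y at -7.41 and FDC at 2.88 against BMDC, and it was -10.36 without the unactivated and -10.22 without the activated FL-Y array. For Ccl8 the difference was -8.45 ± 0.68, with FL-Y at -3.51 and FDC at 4.94 against BMDC, and -9.19 and -7.71 without those arrays in turn.

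The others differed by less. Of genes higher in FL-Y and lower in FDC than in BMDC, Mcm2 differed between FL-Y and FDC by 3.34 ± 0.50, the DNA polymerase subunit Pola1 by 3.43 ± 0.48, E2f7, a repressor of the E2F family, by 3.13 ± 0.38 and Nek2 by 4.94 ± 0.54. Of genes lower in FL-Y and higher in FDC than in BMDC, the complement factor Cfb differed by -6.34 ± 0.56 and the cyclin Ccng1 by -2.43 ± 0.30. By limma's adjusted p, none of these differences was called without either FL-Y array.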

How the results depend on the processing

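No paired analysis was possible because the 2 FL-Y arrays carry no replicate number that BMDC or FDC arrays share. Against BMDC, the 3053 probe sets higher in FL-Y became 5841 with the arrays rescaled to one median, 1687 with no filter and 1490 in the fit of 6 arrays with each FL-Y array as a group of its own, and between 885 and 3538 without 1 array; the 3864 lower ones became 2283 in that fit of 6 arrays and between 1499 and 4048 without 1 array. Against FDC, the 1055 probe sets higher in FL-Y became 489 with a floor in place of the offset, 1649 with the larger offset, 2754 rescaled to one median, 163 with no filter, 1825 with a trend in the prior and 31 with each FL-Y array as its own group, and between 0 and 915 without 1 array (617 without either BMDC array, 281 without the first FDC array). The 1397 lower ones became 738, 883, 395 and 159 with the floor, rescaling, no filter and FL-Y arrays as their own groups, and between 0 and 1136 without 1 array (582 without the first FDC array). These fits with 1 array in a group assume that it varies like the other arrays.

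Of 303 genes named and tested against BMDC, 236 were called, 58 of these lost the call in 1 setting or more, and none of the called ones changed sign. Over all 3791 called genes, 11 of the 3447 that could be tested as the mean over probe sets changed sign under that setting, and none under the others. The named genes that changed sign were not called. Rescaled to one median they were Bbc3 (0.096), Cd24a (0.27), Col7a1 (0.029), Fn1 (0.35), Lamp1 (0.081), Lamp2 (0.30), Mki67 (0.54), Mmp2 (0.45), Pdia3 (0.15), Rplp0 (0.20), Runx1 (0.25), Tpsb2 (0.15) and Vim (0.034). After quantile normalization they were Fn1 (0.14), Mmp2 (0.18), Rplp0 (0.091) and Tpsb2 (0.19). With the mean over probe sets they were Calr (-0.028), Epcam (-1.32), Fn1 (0.47), Meis1 (-0.40), Mmp2 (0.032) and Tirap (-0.32), and with the floor Mcpt4 (-0.0043). Leaving out each of the 4 arrays in turn turned the sign of Calr (-0.34 to 0.44), Cd24a (-0.59 to 0.0025), Fn1 (-0.51 to 0.067), Gmnn (-0.018 to 0.40), Il6st (-0.36 to 1.60), Lamp2 (-0.84 to 0.30), Mcpt4 (-0.35 to 0.38), Meox1 (-0.28 to 1.43), Mki67 (-0.091 to 0.032), Mmp2 (-0.52 to 0.38), Myh9 (-0.098 to 0.47), Pdgfa (-0.27 to 0.98), Pdpn (-0.18 to 0.59), Tirap (-0.16 to 0.31) and Tlr3 (-0.063 to 0.53).

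Precision is limited by 2 arrays a group, by signals near background with no detection calls, and by an FL-Y pair whose members differ in treatment. The arrays also differed in the ratio of labelling to hybridization control signals. It was 0.044 and 0.049 on the FL-Y arrays, 0.086 and 0.417 on the BMDC arrays and 0.099 and 0.273 on the FDC arrays. What part this has in the differences was not tested. No setting separates the SV40 transformation from the cell type.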

Other observations

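The largest differences between FL-Y and cultured FDC reached beyond the lists. Among genes higher in FL-Y, Nek2, a kinase of centrosome splitting, read 1903 and 2469 in FL-Y, 30.5 and 99.1 in FDC and 284 and 483 in BMDC, and Rspo2, a secreted protein that strengthens Wnt signalling, read 1737 and 2553 in FL-Y, 69.6 and 46.3 in FDC and 4.9 and 11.4 in BMDC. Ly6k, a surface protein known from germ cells and tumours, read 6583 and 6392 in FL-Y, 402 and 204 in FDC and 6.6 and 6.9 in BMDC. Among genes lower in FL-Y, the eotaxin Ccl11 read 1.8 and 1.5 in FL-Y, 20007 and 1625 in FDC and 31.4 and 24.1 in BMDC. The maternally expressed RNA Meg3 read 22.7 and 20 in FL-Y, 8382 and 14889.9 in FDC and 92.4 and 49.5 in BMDC. FL-Y thus read above both primary cell types for Rspo2 and Ly6k, and below both for Ccl11 and Meg3, with FDC above BMDC on every array.

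The activated FL-Y array is a single array, so its differences from the unactivated one are values with no test. Ccl2, a chemokine for monocytes, read 2713 on the unactivated and 10562 on the activated array and the gelatinase Mmp9 15.4 and 541. In BMDC these genes read 735 and 4559.7 for Ccl2 and 6559 and 2967 for Mmp9.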
